A study of Mus musculus with 20 samples.

Results

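The genes described here are 38 chaperones, folding enzymes, stress sensors, degradation factors and translocation subunits of the endoplasmic reticulum (ER), taken by name from the 28632 genes counted in mouse pancreatic islets. The list goes by the known roles of the genes and sets no threshold on a measured value, but it was drawn up with earlier results of these data known. Bulk RNA sequencing (RNAseq) was carried out on islets of 12-week-old mice on the C57BL/6N background, kept for a day in culture after isolation. The study asked what the loss of the mitochondrial fusion proteins Mfn1 and Mfn2 does to the transcriptome of the insulin-secreting β-cell. There were 6 control (Ctrl), 4 β-Mfn1KO, 5 β-Mfn2KO and 5 β-Mfn1/2DKO libraries, with males and females in every group. Their proportions differed between groups, and in β-Mfn1KO only replicate 4 was male. β-Mfn1KO mice carried homozygous loxP alleles of Mfn1 together with an Ins1-Cre knock-in, β-Mfn2KO mice homozygous loxP alleles of Mfn2 with the same Cre, and β-Mfn1/2DKO mice both. The labels call the controls wild type, whereas the study's methods state that Ins1-Cre mice and mice with floxed alleles alone were pooled, so some controls may carry the Cre or floxed alleles. Ins1-Cre acts in β-cells, and the other cells of a whole islet keep both mitofusins.

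Secreted and membrane proteins fold inside the ER. The Hsp70 chaperone BiP (Hspa5) binds unfolded chains and works with the Hsp90 paralogue Grp94 and with J-domain cofactors, calnexin and calreticulin hold glycoproteins, and protein disulphide isomerases (PDIs) form disulphide bonds with oxidising power from the Ero1 enzymes. Proteins that fail to fold are moved back to the cytosol and destroyed by ER-associated degradation. When unfolded chains accumulate, the membrane sensors Ire1α (Ern1), Atf6 and Perk (Eif2ak3) start the unfolded protein response, in which spliced Xbp1 and cleaved Atf6 drive chaperone and degradation genes and Perk slows protein synthesis. The β-cell makes proinsulin in very large amounts and is known for its reliance on this machinery.

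The libraries held 65533388 to 122947313 counts in β-Mfn1/2DKO, deeper than any other library, and 12400687 to 20329064 counts in Ctrl, 15745680 to 16685381 in β-Mfn1KO and 15110046 to 59533407 in β-Mfn2KO. Libraries both below and above 40000000 counts occurred only in β-Mfn2KO. Levels are given as CPM, counts scaled to a library total of 1000000 after correction by the trimmed mean of M values (TMM). Mfn1 fell in β-Mfn1KO by 1.31 and in β-Mfn1/2DKO by 1.07 on the log2 scale, and Mfn2 fell in β-Mfn2KO by 1.15 and in β-Mfn1/2DKO by 0.75, all at adjusted p of 6.6e-07 or lower. Mfn1 spanned 15.0 to 18.6 CPM in β-Mfn1KO, 16.6 to 25.6 CPM in β-Mfn1/2DKO and 36.6 to 43.6 CPM in Ctrl, and Mfn2 35.6 to 40.8 CPM in β-Mfn2KO, 48.8 to 51.5 CPM in β-Mfn1/2DKO and 74.6 to 106 CPM in Ctrl. The markers of β-, α-, δ- and PP-cells were above 0 in every library, while all 7 β-cell markers fell in β-Mfn1/2DKO (summed level 63578 to 86475 CPM against 143948 to 231572 CPM in Ctrl). One of the 7, Ins1, is the gene that carries the Cre knock-in. It was also lower in β-Mfn1KO, by 0.82 on the log2 scale, and in β-Mfn2KO, by 0.94, without overlap with Ctrl. The other 6 did not pass there. The part of the Cre allele in the fall of Ins1 was not tested. In bulk tissue, fewer β-cells and less RNA per β-cell cannot be told apart. By the study's account β-cell mass, measured on pancreas sections of slightly younger mice, did not differ significantly between the genotypes. The 16 markers of acinar cells, mostly digestive enzymes, reached a summed 16820.3 and 43508 CPM in β-Mfn1/2DKO replicates 4 and 5. They were at 109 to 7128 CPM in the other 18 libraries, and 13 of the 16 rose in β-Mfn1/2DKO against Ctrl. The 4 endothelial markers also rose in β-Mfn1/2DKO (summed level 146 to 239 CPM against 98.2 to 148 CPM in Ctrl), and their part in the results was not tested.

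The DNA element through which Atf6 and spliced Xbp1 act on chaperone genes, the ER stress response element (ERSE), is printed first because many of these genes share it. It was searched on both strands as CCAAT, any 9 bases, then CCACG, in the 250 bases before and 50 bases after each start site in RefSeq (GRCm38.p6). Of the 33 genes with a promoter entry, 10 held it (30.3%), against 0.137% of all 27025 genes with an entry. Since the genes were listed for their part in this response, the higher share is no independent result. Hyou1, Manf, Atf6, Derl1 and Sec61a1 had no entry. The 10 genes hold 11 matches, written 5′ to 3′ on the strand that reads CCAAT first, with the fixed bases in capitals:
Hspa5, chr2:34772025-34772043, plus strand: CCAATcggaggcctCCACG
Hsp90b1, chr10:86705638-86705656, minus strand: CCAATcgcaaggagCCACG
Hsp90b1, chr10:86705533-86705551, plus strand: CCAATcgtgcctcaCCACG
Dnajc3, chr14:118937827-118937845, plus strand: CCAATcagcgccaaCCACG
Creld2, chr15:88819520-88819538, minus strand: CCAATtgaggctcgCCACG
Calr, chr8:84847075-84847093, plus strand: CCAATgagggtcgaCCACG
Canx, chr11:50325800-50325818, minus strand: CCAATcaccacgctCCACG
Pdia6, chr12:17266491-17266509, plus strand: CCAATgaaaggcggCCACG
Ero1lb, chr13:12565682-12565700, minus strand: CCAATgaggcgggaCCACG
Syvn1, chr19:6046532-6046550, plus strand: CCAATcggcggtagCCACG
Derl3, chr10:75893242-75893260, minus strand: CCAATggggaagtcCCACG
The shorter ERSE-II (ATTGG, any base, CCACG) was found in Dnajb11 and Herpud1, the pair making up 6.06% of the genes with an entry against 0.0444% of all genes. The core of the unfolded protein response element (TGACGTGG) was found in Txndc5 alone, and 0.714% of all genes hold it. The core of the element read by Atf4 and Chop (TGATGCAA) was found in Herpud1 alone, and 1.03% of all genes hold it. A match is a description of the sequence and does not show that a factor binds there.

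Among the 10 genes with an ERSE, the 5 with the lowest adjusted p in β-Mfn1/2DKO against Ctrl are shown with the bases upstream of their start sites, since they set the element in its context. The fixed bases of the ERSE are in capitals, as read on the strand of the gene, so that an element on the opposite strand appears as CGTGG, 9 bases, then ATTGG. Bases that any annotated transcript counts as exon were left off (9 in Ero1lb and 44 in Pdia6).
Ero1lb, chr13:12565633-12565873, plus strand: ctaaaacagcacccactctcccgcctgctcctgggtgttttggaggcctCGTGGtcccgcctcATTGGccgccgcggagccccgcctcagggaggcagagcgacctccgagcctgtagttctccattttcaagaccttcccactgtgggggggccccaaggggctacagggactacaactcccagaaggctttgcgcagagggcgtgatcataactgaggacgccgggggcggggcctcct
Syvn1, chr19:6046326-6046575, plus strand: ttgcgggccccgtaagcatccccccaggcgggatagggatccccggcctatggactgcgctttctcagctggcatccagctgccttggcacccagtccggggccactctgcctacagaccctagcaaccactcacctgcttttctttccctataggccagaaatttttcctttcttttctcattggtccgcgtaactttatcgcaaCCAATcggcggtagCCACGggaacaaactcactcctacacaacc
Creld2, chr15:88819396-88819645, plus strand: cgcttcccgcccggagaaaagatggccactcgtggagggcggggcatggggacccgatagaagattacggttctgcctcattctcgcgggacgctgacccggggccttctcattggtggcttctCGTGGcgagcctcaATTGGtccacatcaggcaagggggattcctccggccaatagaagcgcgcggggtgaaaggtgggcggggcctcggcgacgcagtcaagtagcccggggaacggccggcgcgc
Dnajc3, chr14:118937682-118937931, plus strand: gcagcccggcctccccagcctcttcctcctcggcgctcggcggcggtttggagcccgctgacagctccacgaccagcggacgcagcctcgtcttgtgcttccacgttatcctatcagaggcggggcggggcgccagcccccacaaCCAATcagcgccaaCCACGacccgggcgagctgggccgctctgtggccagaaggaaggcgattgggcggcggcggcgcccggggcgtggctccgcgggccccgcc
Pdia6, chr12:17266339-17266544, plus strand: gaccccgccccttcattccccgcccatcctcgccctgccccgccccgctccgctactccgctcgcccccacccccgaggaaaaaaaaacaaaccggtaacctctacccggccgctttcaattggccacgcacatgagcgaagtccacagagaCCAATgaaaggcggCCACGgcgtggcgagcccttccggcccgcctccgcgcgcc
In Syvn1 the element began 44 bases before the start site, in Pdia6 98, in Dnajc3 105, in Creld2 126 and in Ero1lb 201. Ero1lb and Creld2 carried it on the strand opposite to the gene.

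In Ctrl islets the 38 genes spanned a wide range of levels, compared between genes as CPM per kilobase of exon. Hspa5 stood highest at 449 CPM per kb, followed by P4hb (339), which encodes the classical PDI, Hsp90b1 (330.2), which encodes Grp94, and Pdia3 (327), the PDI partner of the lectin chaperones. Calr (266) and Ero1lb (231), the Ero1 form typical of β-cells and other secretory cells, came next. P4hb, Hsp90b1 and Pdia3 did not differ beyond their spread between libraries. The sensors lay far lower, with Ern1 at 34.7, Atf6 at 17.97 and Eif2ak3 at 17.5 CPM per kb. Derl3 was lowest at 1.33 CPM per kb, and every gene was counted in all 20 libraries. Together the 38 genes took 1.10% to 1.75% of all counts in Ctrl libraries, 1.57% to 1.73% in β-Mfn1KO, 1.27% to 1.62% in β-Mfn2KO and 0.975% to 1.31% in β-Mfn1/2DKO.

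**Figure D1:**
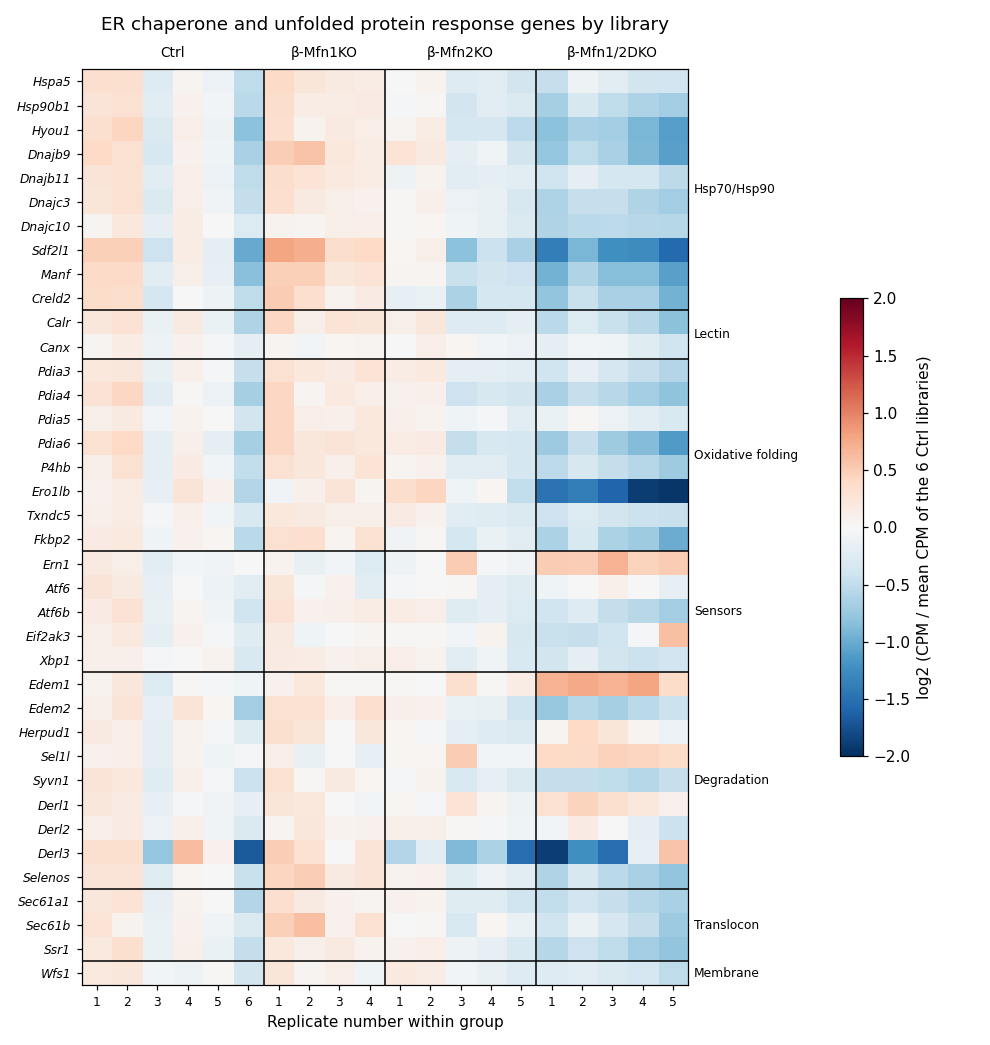
Heat map of the 38 genes (rows, grouped by role) in the 20 libraries (columns, grouped by genotype), coloured by the log2 ratio of CPM to the mean of the 6 Ctrl libraries. Most folding genes are blue in all 5 β-Mfn1/2DKO libraries and in Ctrl replicate 6, while Ern1, Edem1 and Sel1l are red in β-Mfn1/2DKO.

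The first question was how the double knockout differs from Ctrl. Of the 38 genes, 26 fell, 4 rose and 8 did not pass the test (edgeR's quasi-likelihood test, Benjamini-Hochberg adjusted p under 0.05 over all genes). Over all 28632 genes tested, 6.86% fell and 9.59% rose, and among the 12274 genes with a mean normalized count of at least 100 the shares were 14.02% and 19.5%. With a fold change over 1.5 required as well, 11 of the 38 fell and 1, Edem1, rose, against 1.97% and 3.24% of all genes. The median log2 fold change of the 38 genes was -0.51, against 0.03 for the genes with a mean of at least 100. The roles differed in direction. Of the 20 folding genes 17 fell and none rose (median -0.56), the 9 degradation genes split into 3 that rose, 3 that fell and 3 that did neither (median -0.09), and of the 5 sensor genes 1 rose and 2 fell (median -0.08). All 3 translocon genes and Wfs1 fell.

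These calls depend on the treatment of sequencing depth, which cannot be told apart from genotype between β-Mfn1/2DKO and Ctrl. With a term for libraries above 40000000 counts, which only the β-Mfn2KO libraries can inform, 1 gene still passed as lower, Ero1lb at -1.19 (adjusted p = 0.011), and 3 as higher, Ern1, Edem1 and Sel1l, with a median of -0.23 and 29 of 38 below 0. Calls fell throughout in that fit, to 1.06% lower and 1.48% higher over all genes. When all libraries were drawn down at random to the smallest total, 27 genes passed as lower and 3 as higher, against 7.49% lower and 7.25% higher over all genes. Scaling by total counts in place of TMM moved the median of the genes with a mean of at least 100 from 0.03 to 0.17 and the split over all genes from 2745 higher and 1965 lower to 5393 and 949, with 5 of the 38 genes higher and 22 lower. With the normalization factors of the authors the split over all genes was 1857 higher and 1995 lower, and that of the 38 genes 3 and 26, with Hspa5 at -0.40 (adjusted p = 0.017) and Canx at -0.22 (adjusted p = 0.045) now among the lower genes and Atf6b, at -0.31 (adjusted p = 0.16), Sec61b, at -0.27 (adjusted p = 0.15), and Derl1, at 0.24 (adjusted p = 0.072), no longer called. With total-count scaling Dnajb11, at -0.21 (adjusted p = 0.15), Pdia3, at -0.24 (adjusted p = 0.10), Sec61b, at -0.26 (adjusted p = 0.072), and Wfs1, at -0.17 (adjusted p = 0.20), lost the call, and Herpud1, at 0.28 (adjusted p = 0.022), gained one.

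In the Hsp70 and Hsp90 system 9 of 10 genes fell, with a median log2 fold change of -0.63. Hspa5 (chr2:34771970-34777547), the BiP gene, was the exception. It was counted at 1331 to 2397 CPM (median 1857) in Ctrl, 2490.0, 2249, 2149 and 2103 CPM in β-Mfn1KO, 1919, 1987, 1584, 1617 and 1479 CPM in β-Mfn2KO and 1386, 1764, 1618, 1472 and 1453 CPM in β-Mfn1/2DKO. The β-Mfn1/2DKO and Ctrl libraries overlapped, and the change of -0.30 ± 0.12 (SE, adjusted p = 0.10) did not pass the test. Of the 12 alternatives to this fit, single left-out libraries aside, Hspa5 passed in 4. Hsp90b1 (chr10:86690209-86705509) was counted at 914 to 1650.1 CPM (median 1341) in Ctrl, 1697, 1475, 1479.8 and 1499 CPM in β-Mfn1KO, 1293, 1356, 1034, 1138 and 1089 CPM in β-Mfn2KO and 839, 1064, 938, 866 and 821 CPM in β-Mfn1/2DKO. It fell to 0.68 times the Ctrl level, a log2 change of -0.56 ± 0.12 (SE, adjusted p = 0.0019), although Ctrl replicate 6 lay within the β-Mfn1/2DKO range.

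Sdf2l1 (chr16:17130138-17132383), a cofactor that keeps BiP and its J-proteins on their clients, had the steepest decrease of this system. Its levels were 69.2 to 194 CPM (median 138) in Ctrl, 240.3, 229.7, 178 and 183 CPM in β-Mfn1KO, 143, 151, 79.1, 103 and 88.4 CPM in β-Mfn2KO and 53.3, 73.7, 59.5, 58.3 and 47.2 CPM in β-Mfn1/2DKO. The log2 change was -1.25 ± 0.21 (SE, adjusted p = 0.00023), and Ctrl replicate 6 was the single Ctrl library within the β-Mfn1/2DKO range. Dnajc10 (chr2:80315466-80354043), a J-protein and disulphide reductase that acts on misfolded chains, changed less but with far less scatter. It was counted at 128 to 178 CPM (median 157) in Ctrl, 163, 161, 168 and 170.4 CPM in β-Mfn1KO, 157, 159, 145, 140.1 and 127 CPM in β-Mfn2KO and 102, 106, 107, 105 and 104 CPM in β-Mfn1/2DKO. The β-Mfn1/2DKO libraries lay below all 15 others, at -0.56 ± 0.07 (SE, adjusted p = 1.1e-05).

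The remaining genes of the system moved with them. Manf, a secreted BiP cofactor that protects β-cells, changed by -0.86 ± 0.16 (SE, adjusted p = 0.00052), from 305 ± 87.3 CPM (SD, n = 6) to 168 ± 21.4 CPM (SD, n = 5). Hyou1, the large Hsp70 that exchanges nucleotide on BiP, changed by -0.82 ± 0.16 (SE, adjusted p = 0.0010). Dnajb9, the J-protein that recruits BiP to Ire1α, changed by -0.77 ± 0.16 (SE, adjusted p = 0.0012), and Creld2, an ER protein induced by stress, by -0.69 ± 0.14 (SE, adjusted p = 0.00092). Dnajc3, the p58IPK cofactor that also restrains Perk, changed by -0.56 ± 0.11 (SE, adjusted p = 0.0010), with β-Mfn1/2DKO libraries at 256 to 302 CPM and Ctrl at 296 to 511 CPM. Dnajb11, a further J-protein of BiP, changed by -0.36 ± 0.11 (SE, adjusted p = 0.024). Its call was lost when Ctrl replicate 1, 2 or 4 or β-Mfn1/2DKO replicate 1, 3, 4 or 5 was left out, the value closest to 0 being -0.29 (adjusted p up to 0.069).

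Of the lectin chaperones, Calr fell by 0.52 ± 0.13 (SE, adjusted p = 0.0084), and the membrane-bound Canx, at -0.18 ± 0.07 (SE, adjusted p = 0.075), did not pass. Among the 8 genes of oxidative folding and proline isomerisation, 7 fell (median -0.57). Ero1lb (chr13:12565874-12611396), which passes oxidising equivalents to the PDIs, had the largest change of all 38 genes. Its levels were 1021 to 1841 CPM (median 1635) in Ctrl, 1456, 1643, 1841 and 1591 CPM in β-Mfn1KO, 1950.3, 2079, 1442, 1576 and 1091 CPM in β-Mfn2KO and 552, 588, 510.0, 413 and 397 CPM in β-Mfn1/2DKO. Every β-Mfn1/2DKO library lay below every other library, at 0.321 times the Ctrl level and a log2 change of -1.64 ± 0.16 (SE, adjusted p = 2.0e-07). Fkbp2 (chr19:6977741-6980501), a proline isomerase that binds proinsulin, was counted at 71.0 to 118 CPM (median 108) in Ctrl, 127, 129.9, 106 and 127 CPM in β-Mfn1KO, 98.5, 105, 80.8, 93.7 and 88.8 CPM in β-Mfn2KO and 66.1, 83.5, 66.2, 63.0 and 51.9 CPM in β-Mfn1/2DKO. It changed by -0.64 ± 0.11 (SE, adjusted p = 0.00036), with Ctrl replicate 6 inside the β-Mfn1/2DKO range.

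The PDIs changed by smaller amounts than Ero1lb. Pdia6, which acts on Ire1α as well as on clients, changed by -0.76 ± 0.16 (SE, adjusted p = 0.0015), Pdia4 by -0.63 ± 0.14 (SE, adjusted p = 0.0030), P4hb by -0.51 ± 0.11 (SE, adjusted p = 0.0024), Txndc5 by -0.39 ± 0.08 (SE, adjusted p = 0.0021) and Pdia3 by -0.38 ± 0.11 (SE, adjusted p = 0.017). The call of Pdia3 was lost without β-Mfn1/2DKO replicate 4 or 5, the value closest to 0 being -0.33 (adjusted p up to 0.056). Pdia5, at -0.15 ± 0.08 (SE, adjusted p = 0.26), did not pass. P4hb, the most abundant of them, went from 969 ± 183 CPM (SD, n = 6) in Ctrl to 679 ± 68.1 CPM (SD, n = 5) in β-Mfn1/2DKO.

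**Figure D2:**
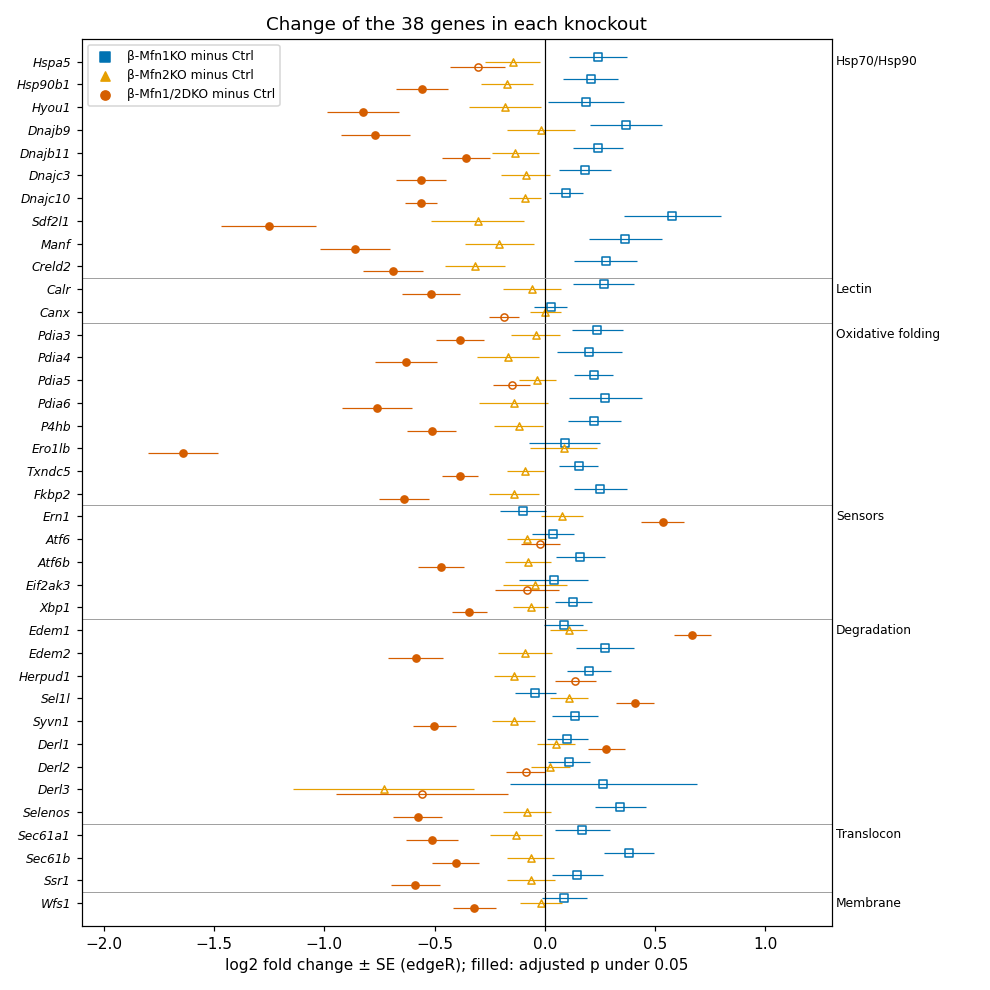
Log2 fold change against Ctrl (x axis, ± SE) of each of the 38 genes (y axis) in β-Mfn1KO (squares), β-Mfn2KO (triangles) and β-Mfn1/2DKO (circles), with filled symbols for an adjusted p under 0.05. Filled symbols occur only in β-Mfn1/2DKO, 26 to the left of 0 and 4 to the right, with Ero1lb farthest to the left at -1.64.

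The sensors did not move as one. Ern1 (chr11:106394650-106487852), the kinase and endonuclease Ire1α that splices Xbp1, rose. It was counted at 245 to 321 CPM (median 279) in Ctrl, 297, 255, 273 and 235 CPM in β-Mfn1KO, 264, 285, 403, 276 and 269 CPM in β-Mfn2KO and 403, 400.0, 458, 387 and 404 CPM in β-Mfn1/2DKO. The β-Mfn1/2DKO libraries lay above all Ctrl and β-Mfn1KO libraries, and β-Mfn2KO replicate 3 reached their range. The log2 change was 0.53 ± 0.10 (SE, adjusted p = 0.00038), or 1.45-fold. Xbp1 (chr11:5520659-5525893), the transcription factor whose mRNA Ire1α splices, was counted at 270.5 to 357 CPM (median 342) in Ctrl, 373, 369, 351 and 361 CPM in β-Mfn1KO, 366, 349, 288, 317 and 271 CPM in β-Mfn2KO and 258, 293, 259, 246 and 255 CPM in β-Mfn1/2DKO. It changed by -0.34 ± 0.08 (SE, adjusted p = 0.0035). Counts per gene do not separate spliced from unspliced Xbp1.

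Atf6 (chr1:170704674-170867771), the sensor released by proteolysis in the Golgi, was counted at 144 to 198 CPM (median 159) in Ctrl, 197, 163, 177 and 144 CPM in β-Mfn1KO, 164, 166, 169, 144 and 141 CPM in β-Mfn2KO and 156, 168, 179, 167 and 148 CPM in β-Mfn1/2DKO. The groups overlapped throughout, and its log2 change was -0.02 ± 0.09 (SE, adjusted p = 0.91). Its paralogue Atf6b changed by -0.47 ± 0.11 (SE, adjusted p = 0.0029), and by -0.31 (adjusted p = 0.16) with the normalization factors of the authors. Eif2ak3 (chr6:70844515-70905245), the kinase Perk, was counted at 88.6 to 121 CPM (median 107) in Ctrl, 119.7, 99.4, 104 and 109 CPM in β-Mfn1KO, 107, 107, 101, 110.5 and 84.3 CPM in β-Mfn2KO and 77.4, 76.2, 79.7, 104 and 160.2 CPM in β-Mfn1/2DKO. Its change of -0.08 ± 0.15 (SE, adjusted p = 0.75) did not pass, and the 2 highest β-Mfn1/2DKO values belong to replicates 4 and 5, the libraries with the highest acinar markers. Without both of them the change was -0.41 (adjusted p = 0.0033). Xbp1, Atf6b and Ern1 kept their calls without them.

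Of the degradation genes, Edem1, Sel1l and Derl1 rose. Edem1 (chr6:108828641-108859356), a mannosidase-like protein that hands misfolded glycoproteins to the degradation complex, was counted at 108 to 154 CPM (median 131) in Ctrl, 138, 152, 133 and 132 CPM in β-Mfn1KO, 132, 132, 163, 133 and 145 CPM in β-Mfn2KO and 212, 221, 212, 225 and 168 CPM in β-Mfn1/2DKO. The β-Mfn1/2DKO libraries lay above all 15 others, at 1.59 times the Ctrl level and a log2 change of 0.67 ± 0.08 (SE, adjusted p = 6.0e-06). Sel1l (chr12:91806043-91849157), the adaptor of the ubiquitin ligase Hrd1, was counted at 177 to 222 CPM (median 206) in Ctrl, 222, 184, 202 and 181 CPM in β-Mfn1KO, 208, 209.8, 288, 196 and 195 CPM in β-Mfn2KO and 267, 266, 279.8, 273 and 263 CPM in β-Mfn1/2DKO. It changed by 0.41 ± 0.09 (SE, adjusted p = 0.0016), and again β-Mfn2KO replicate 3 alone reached the β-Mfn1/2DKO range. Derl1 (chr15:57869502-57892448), a membrane protein of the retrotranslocation channel, was counted at 192 to 252 CPM (median 208) in Ctrl, 255, 249, 214 and 207 CPM in β-Mfn1KO, 221, 211, 259.6, 225 and 201 CPM in β-Mfn2KO and 267, 294, 268, 249 and 228 CPM in β-Mfn1/2DKO. The groups overlapped, and the change of 0.28 ± 0.09 (SE, adjusted p = 0.027) lost its call when Ctrl replicate 3, 4, 5 or 6 was left out, with values down to 0.25 (adjusted p up to 0.065).

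Syvn1, Edem2 and Selenos fell. Syvn1 encodes Hrd1, the ligase that Sel1l serves, and changed by -0.50 ± 0.10 (SE, adjusted p = 0.00081), its β-Mfn1/2DKO libraries at 56.6 to 61.0 CPM lying below the 62.7 to 101 CPM of Ctrl. Edem2, the mannosidase that starts glycan trimming, changed by -0.59 ± 0.12 (SE, adjusted p = 0.0017), and Selenos, a selenoprotein of the same membrane complex, by -0.58 ± 0.11 (SE, adjusted p = 0.00070). Herpud1, an organiser of the Hrd1 complex that holds an ERSE-II and the Atf4 element, changed by 0.14 ± 0.09 (SE, adjusted p = 0.38), and Derl2 by -0.09 ± 0.09 (SE, adjusted p = 0.59). Neither passed. Derl3, at 0.827 to 4.07 CPM in Ctrl and 0.72, 1.12, 0.92, 2.37 and 3.93 CPM in β-Mfn1/2DKO, changed by -0.56 ± 0.39 (SE, adjusted p = 0.40). Its highest β-Mfn1/2DKO levels were again in replicates 4 and 5, and without them the change was -1.50 (adjusted p = 0.0053).

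The translocon genes fell together. Sec61a1, the channel itself, changed by -0.51 ± 0.12 (SE, adjusted p = 0.0036), its small subunit Sec61b by -0.40 ± 0.11 (SE, adjusted p = 0.010), a call that total-count scaling, the factors of the authors and the removal of β-Mfn1/2DKO replicates 4 and 5 each ended, and Ssr1, a subunit of the translocon-associated protein complex that helps proinsulin enter the ER, by -0.59 ± 0.11 (SE, adjusted p = 0.00056). Wfs1 (chr5:36966104-36989205), the ER membrane protein wolframin whose loss causes β-cell failure in Wolfram syndrome, was counted at 123 to 184 CPM (median 156) in Ctrl, 187, 163, 173 and 149 CPM in β-Mfn1KO, 181, 175, 152, 143 and 132 CPM in β-Mfn2KO and 133, 135, 129.9, 126 and 111 CPM in β-Mfn1/2DKO. Wfs1 changed by -0.32 ± 0.10 (SE, adjusted p = 0.024), with β-Mfn1/2DKO and Ctrl libraries overlapping. It lost the call when Ctrl replicate 1 or 2 or β-Mfn1/2DKO replicate 4 was left out, the value closest to 0 being -0.27 (adjusted p up to 0.069).

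**Figure D3:**
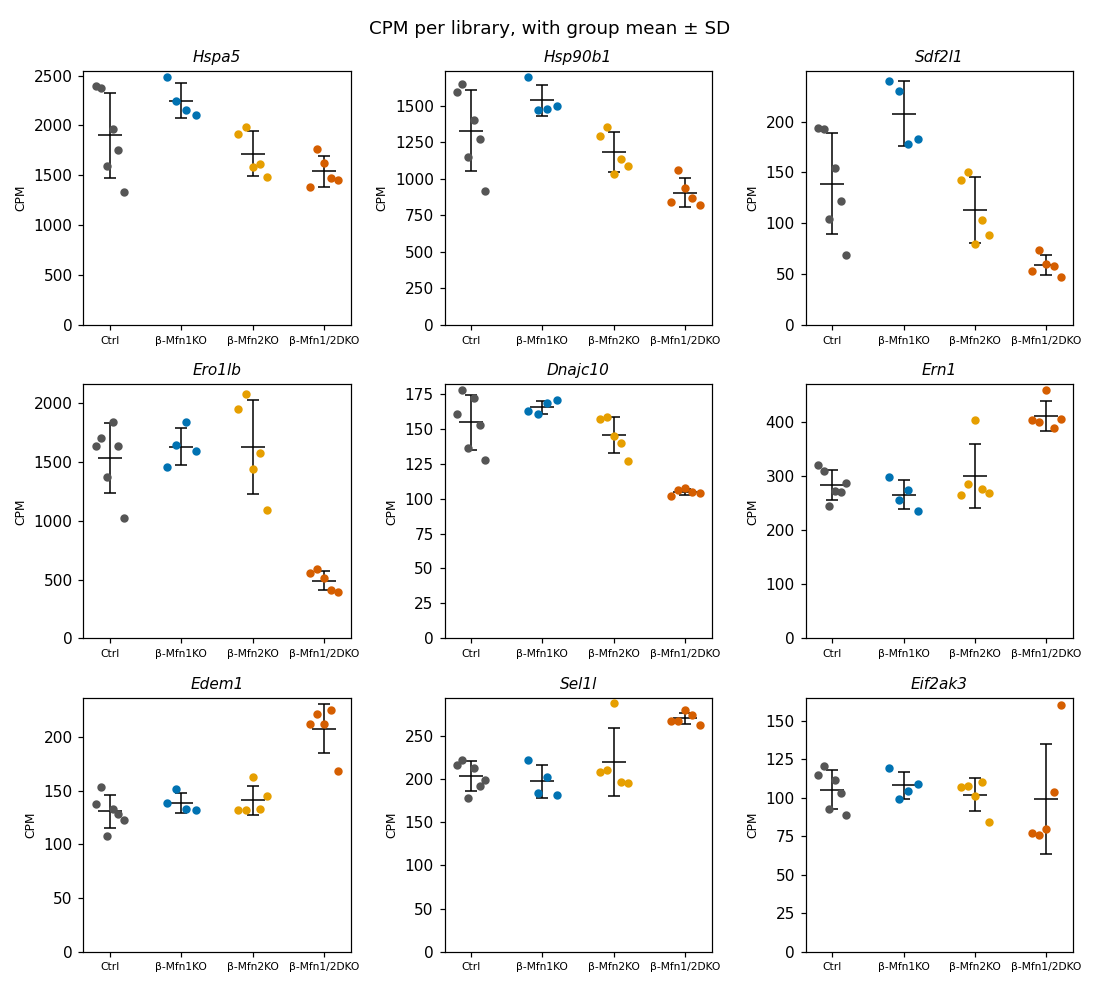
CPM (y axis, from 0) of 9 of the genes in every library (points) by genotype (x axis), with group means and SD (bars). The β-Mfn1/2DKO points lie apart from Ctrl for Ero1lb, Dnajc10, Ern1, Edem1 and Sel1l, overlap with the lowest Ctrl library for Hsp90b1 and Sdf2l1, and overlap broadly for Hspa5 and Eif2ak3.

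The spread between libraries was widest in Ctrl, where the SD of log2 CPM had a median of 0.28 over the 38 genes, against 0.12 in β-Mfn1KO, 0.19 in β-Mfn2KO and 0.15 in β-Mfn1/2DKO. Ctrl replicate 6 was the lowest Ctrl library for 35 of the 38 genes, and for 23 of the 26 genes that fell in β-Mfn1/2DKO it lay at or below the highest β-Mfn1/2DKO library. Ctrl replicate 3 did so for 2 and the other 4 Ctrl libraries for none. The macrophage marker Lyz2 was at 440 CPM in Ctrl replicate 6 and at 13.6 to 24.4 CPM in the other Ctrl libraries. The mesenchyme marker Col1a1 was at 102 CPM there against 3.16 to 13.1 CPM. In β-Mfn2KO replicate 5, the lowest of its group for 24 genes, they were at 636 and 134 CPM. The part of these cells in the results was not tested. Leaving out Ctrl replicate 6 gave 29 genes lower and 3 higher, with Hspa5 then at -0.39 (adjusted p = 0.016). Leaving out β-Mfn1/2DKO replicates 4 and 5 gave 23 lower and 4 higher, against 3.89% lower and 7.36% higher over all genes, and the calls of Dnajb11, Calr, Pdia3, Sec61b and Wfs1 were lost. With the acinar marker score as a covariate 27 were lower and 4 higher. Shares over all genes were not set beside the counts without Ctrl replicate 6 and with the acinar score. Those counts describe the 38 genes alone.

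The genes with and without an ERSE were then set side by side. The 10 genes had a median log2 fold change of -0.56 in β-Mfn1/2DKO against Ctrl, 7 of them falling and none rising. The 23 genes with a promoter entry and no match had a median of -0.39, 16 falling and 3 rising. The ranges overlapped, from -1.64 to -0.18 and from -1.25 to 0.67. Ern1, Edem1 and Sel1l held no match in the window searched.

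The single knockouts were compared with Ctrl in the same way. In β-Mfn1KO, 0 of the 38 genes passed, while 0.0279% of all genes did, and 9 had an unadjusted p under 0.05 (DESeq2 also called 0, with 8 at that unadjusted p). The values leaned upward, with 36 of 38 above 0 and a median of 0.19. Of the genes with a mean of at least 100, 52.5% were above 0, with a median of 0.01. The lean rests in part on Ctrl replicate 6, the low Ctrl library. Without it the median of the 38 genes was 0.10 with 6 values below 0, and 3 genes had an unadjusted p under 0.05. Sdf2l1 was the farthest from 0, at 0.58 ± 0.22 (SE, adjusted p = 0.61), followed by Sec61b at 0.38 ± 0.11 (SE, adjusted p = 0.51). In β-Mfn2KO, 0 passed, against 0.0559% of all genes, and 1 had an unadjusted p under 0.05 (DESeq2 called 0, with 1). The median there was -0.09, and 31 of 38 values were below 0. Of the genes with a mean of at least 100, 53.7% were above 0, with a median of 0.01. Without Ctrl replicate 6 the median of the 38 genes became -0.15 and 34 were below 0. Then 14 genes had an unadjusted p under 0.05 and still 0 were called. Shares over all genes were not set beside the counts at an unadjusted p or those without Ctrl replicate 6. Ero1lb, the gene that changed most in the double knockout, was at 0.09 ± 0.16 (SE, adjusted p = 0.96) in β-Mfn1KO and 0.08 ± 0.15 (SE, adjusted p = 1.0) in β-Mfn2KO. Edem1 was at 0.09 ± 0.09 and 0.11 ± 0.08, and Ern1 at -0.10 ± 0.10 and 0.08 ± 0.10. These comparisons share the Ctrl libraries with that of the double knockout.

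Whether the double knockout differs from each single knockout was tested directly. Against β-Mfn1KO, 28 genes were lower and 3 higher (median -0.67), while over all genes 7.69% were lower and 9.67% higher. Hspa5 passed here, at -0.55 ± 0.14 (SE, adjusted p = 0.0062), with every β-Mfn1/2DKO library below every β-Mfn1KO library. Against β-Mfn2KO, 23 genes were lower and 3 higher (median -0.37), against 5.9% and 7.09% of all genes. Ero1lb stood at -1.73 ± 0.16 (SE, adjusted p = 4.1e-07), Sdf2l1 at -0.95 ± 0.22 (SE, adjusted p = 0.0049), Edem1 at 0.56 ± 0.09 (SE, adjusted p = 0.00013), Ern1 at 0.46 ± 0.10 (SE, adjusted p = 0.0034) and Sel1l at 0.30 ± 0.09 (SE, adjusted p = 0.029). Hspa5, at -0.16 ± 0.13 (SE, adjusted p = 0.48), Creld2, at -0.37 ± 0.14 (SE, adjusted p = 0.087), and Derl1, at 0.23 ± 0.09 (SE, adjusted p = 0.10), did not pass.

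The comparison with β-Mfn2KO can be narrowed to the deep libraries, although depth is not matched there. Replicates 4 and 5 of β-Mfn2KO held 55962873 and 59533407 counts, below the 65533388 to 122947313 counts of β-Mfn1/2DKO. Both were male, whereas β-Mfn1/2DKO held both sexes, and replicate 4 had summed acinar markers of 7128 CPM. Among the libraries above 40000000 counts, replicates 4 and 5 of β-Mfn2KO and all 5 of β-Mfn1/2DKO, 3 genes were lower and 3 higher, against 2.08% lower and 4.31% higher over all genes. They were Ero1lb at -1.39 (adjusted p = 0.0045), Sdf2l1 at -0.67 (adjusted p = 0.032) and Dnajc10 at -0.30 (adjusted p = 0.021), and Ern1 at 0.64 (adjusted p = 0.0057), Edem1 at 0.62 (adjusted p = 0.021) and Sel1l at 0.51 (adjusted p = 0.0051). Without β-Mfn1/2DKO replicates 4 and 5, 7 were lower and 4 higher in the comparison with all β-Mfn2KO libraries, against 3.08% lower and 5.59% higher over all genes. Leaving out 1 library gave 12 lower without β-Mfn2KO replicate 1, 12 without β-Mfn2KO replicate 2 and 12 without β-Mfn1/2DKO replicate 4, where 4.78%, 4.49% and 4.14% of all genes were lower.

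The other genes of these pathways, from lists named by function, were read in β-Mfn1/2DKO against Ctrl. Of 19 genes for signal peptide cleavage, translocation and N-glycan transfer, 18 fell and none rose (median -0.51), and 12 fell without β-Mfn1/2DKO replicates 4 and 5 as well as with total-count scaling. Those of lowest adjusted p were Sec61g, the third subunit of the Sec61 channel, at -0.91 ± 0.13 (SE, adjusted p = 4.8e-05), the oligosaccharyl transferase subunit Dad1 at -0.54 ± 0.08 (SE, adjusted p = 9.8e-05) and the signal peptidase subunits Spcs3 at -0.65 ± 0.10 (SE, adjusted p = 0.00012) and Spcs1 at -0.54 ± 0.09 (SE, adjusted p = 0.00019). Of 23 further folding genes 9 fell and 2 rose (median -0.21), or 6 and 5 with total-count scaling. The proline isomerase Fkbp11 changed by -1.87 ± 0.25 (SE, adjusted p = 1.6e-05), at 5.57 to 8.69 CPM against 9.02 to 35.3 CPM in Ctrl, the Hsp70 relative Hspa13 by -0.77 ± 0.14 (SE, adjusted p = 0.00044), the cyclophilin Ppib by -0.51 ± 0.09 (SE, adjusted p = 0.00049) and the thioredoxin-like Txndc12 by 0.35 ± 0.06 (SE, adjusted p = 0.00018). Of 23 further degradation genes 9 fell and 3 rose (median -0.06). With total-count scaling the split turned, to 2 that fell and 8 that rose. Calls over all genes moved the same way under that scaling, as given above. Without β-Mfn1/2DKO replicates 4 and 5, 4 fell and 3 rose. Edem3 changed by -0.51 ± 0.08 (SE, adjusted p = 7.5e-05) and Vcp, the ATPase that pulls clients from the membrane, by -0.49 ± 0.09 (SE, adjusted p = 0.00026), while Erlin1 changed by 0.55 ± 0.10 (SE, adjusted p = 0.00050) and Aup1 by 0.31 ± 0.06 (SE, adjusted p = 0.00066).

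The list for the output of the Perk arm, which holds Atf4 itself and genes downstream of it or of Chop, was mixed. Of its 12 genes 7 rose, none fell and 5 did not pass (median 0.67). Ddit3, the gene of Chop, was at 151 to 315 CPM against 39.3 to 79.6 CPM in Ctrl, a log2 change of 1.95 ± 0.29 (SE, adjusted p = 4.2e-05). Trib3, its pseudokinase target, was at 191 to 322 CPM against 43.4 to 111 CPM in Ctrl, a change of 1.94 ± 0.23 (SE, adjusted p = 2.9e-06). Sesn2 changed by 0.86 ± 0.08 (SE, adjusted p = 9.1e-08) and Atf3 by 1.83 ± 0.31 (SE, adjusted p = 0.00018). Atf3 stood at 8.21 to 12.3 CPM in β-Mfn1/2DKO replicates 1 to 3 and at 21.98 and 30.8 CPM in the acinar-rich replicates 4 and 5, and without both it changed by 1.17 (adjusted p = 0.0032). Ddit3, Trib3, Sesn2 and Atf3 were higher in every β-Mfn1/2DKO library than in every Ctrl library. The 5 that did not pass, named here after their values were seen, were Atf4 at 0.07 ± 0.10 (SE, adjusted p = 0.67), Chac1 at 0.10 ± 0.19 (SE, adjusted p = 0.76), Ddit4 at 0.30 ± 0.15 (SE, adjusted p = 0.20), Ppp1r15b at -0.07 ± 0.05 (SE, adjusted p = 0.42) and Asns at -0.27 ± 0.09 (SE, adjusted p = 0.056). Without Ctrl replicate 6, Asns passed as lower, at -0.31 (adjusted p = 0.027). Nupr1, also named after its values were seen, changed by 3.20 ± 0.55 (SE, adjusted p = 0.00024), and by 1.71 (adjusted p = 0.0087) without β-Mfn1/2DKO replicates 4 and 5. The genes of this list also answer stress kinases other than Perk. Among 10 genes of sensor processing and ER stress transcription factors 2 rose and 3 fell. Tmbim6, the ER membrane protein Bax inhibitor-1 that binds Ire1α, changed by 0.66 ± 0.08 (SE, adjusted p = 3.1e-06), Bhlha15 (Mist1), a transcription factor that Xbp1 drives in secretory cells, by -1.27 ± 0.20 (SE, adjusted p = 9.8e-05), Creb3l2 by -0.37 ± 0.08 (SE, adjusted p = 0.0024) and Creb3l1 by -0.30 ± 0.08 (SE, adjusted p = 0.013). Creb3l1 lost its call with total-count scaling and without β-Mfn1/2DKO replicates 4 and 5, at -0.16 (adjusted p = 0.21) and -0.14 (adjusted p = 0.27). Ins2, the main client load of the β-cell ER, fell by 1.09 ± 0.13 (SE, adjusted p = 4.5e-06).

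**Figure D4:**
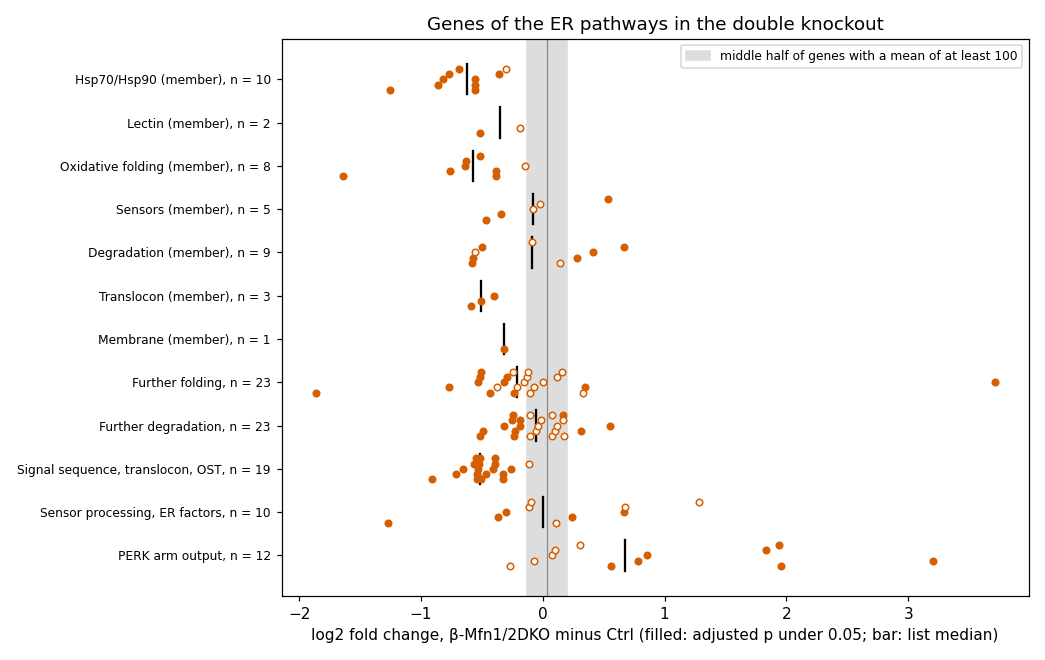
Log2 fold change in β-Mfn1/2DKO against Ctrl (x axis) of each gene in the 7 roles and in 5 further lists (y axis), filled where the adjusted p was under 0.05, with list medians as bars and the interquartile range of the genes with a mean of at least 100 shaded. The medians of the folding, translocon and signal sequence lists lie to the left of the shaded band, the degradation lists span it, and the Perk output list has its median to the right at 0.67.

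Some counts can hold reads of a neighbour, because whether counting used strand is not given in the sources used here. Exons of Syvn1 overlap 91 bases of Mrpl49 on the opposite strand, those of Derl2 231 bases of Mis12, and those of Manf 146 bases of Dcaf1 on the opposite strand and 14 bases of Rbm15b on the same strand. The neighbours' total counts came to 40.4%, 28.1%, 25.7% and 32.0% of those of Syvn1, Derl2 and Manf. Of the 75-base stretches in the transcripts of Sec61b, 10.1% also occur in another annotated gene, of Ero1lb 7.74%, of Derl1 3.88%, of Dnajb9 2.55% and of Hsp90b1 1.73%. The partner genes held at most 0.444% of the counts of these genes, and the other 33 genes shared none.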

How the data were processed

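Islet RNA was sequenced in 20 libraries. Per the labels and the submitters' processing notes, reads were checked with FastQC 0.11.8 and handled with cutadapt 2.3, STAR 2.6.1b on GRCm38 and RSEM 1.3.1. The study names an Ensembl reference, and the strand setting is not given in the sources used here. The authors deposited gene counts (RSEM estimates) as whole numbers, which were tested as deposited, and a table of depth-normalized values (signal) made with DESeq2 1.26.0, from which only their normalization factors were taken, as an alternative chosen after seeing the data. Counts came to 12400687 to 122947313 a library, and the precision between samples rests on 4 to 6 libraries a group.

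All 4 groups were fitted together in edgeR 4.0.16 (R 4.3.3, TMM factors, quasi-likelihood test, no covariate, no filter on low counts), with p-values adjusted by Benjamini-Hochberg over 28632 genes. SE is the standard error of the log2 fold change. Positions and exon lengths follow GENCODE mouse release 21 (GRCm38), and promoters RefSeq GRCm38.p6. Python 3.11.15, pandas 2.3.3 and Matplotlib 3.10.9 were used for tables and plots, and the fit was tested on simulated data. The study counts the libraries of each group as mice, whereas the labels do not tie a library to an animal, and p-values measure the spread between these libraries.

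The genes and lists were chosen with earlier results of these data known. Values in each knockout library, with the Ctrl range and median, were given for Hspa5, Hsp90b1, Ern1, Atf6, Eif2ak3, Xbp1, Wfs1 and Ero1lb. The same was done, in each direction, for the 4 genes of lowest adjusted p in β-Mfn1/2DKO against Ctrl. Of each further list the 4 of lowest adjusted p were named with their log2 changes. Alternatives covered scaling (total counts, DESeq2 size factors), filterByExpr, the test (DESeq2 1.42.0), fits on 2 groups, sex, acinar score, depth class and replicate number as terms, counts drawn down to the smallest total, and left-out libraries.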

Additional observations from a re-analysis of the deposited data

Results flagged for a closer look

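Each of the 38 genes was examined for a library lying far from the rest of its group (Dixon's test at the 95% level) in 152 combinations of gene and group, and 10 stood out. Chance gives about 1 in 20. In Ctrl, where 6 libraries were compared, Xbp1 stood out in replicate 6 at 270.5 CPM (nearest library 328 CPM). In β-Mfn1KO, Hsp90b1 was high in replicate 1 at 1697 CPM (nearest library 1499 CPM), Canx was low in replicate 2 at 573 CPM (nearest library 613 CPM), Derl2 was high in replicate 2 at 125 CPM (nearest library 114 CPM) and Fkbp2 was low in replicate 3 at 106 CPM (nearest library 127 CPM). In β-Mfn2KO both such values were in replicate 3, which held Ern1 at 403 CPM (nearest library 285 CPM) and Sel1l at 288 CPM (nearest library 209.8 CPM). In β-Mfn1/2DKO, Ern1 was high in replicate 3 at 458 CPM (nearest library 404 CPM), Xbp1 was high in replicate 2 at 293 CPM (nearest library 259 CPM) and Edem1 was low in replicate 5 at 168 CPM (nearest library 212 CPM), still above every Ctrl library.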

How the results depend on the processing

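Fits without 1 library each gave 3 to 4 genes higher and 23 to 29 lower in β-Mfn1/2DKO than in Ctrl, 31 to 33 changed against β-Mfn1KO and 14 to 27 changed against β-Mfn2KO (26 with all libraries), the lowest counts of the last being 14, 15 and 15 without β-Mfn2KO replicate 2, β-Mfn2KO replicate 1 and β-Mfn1/2DKO replicate 4. The single knockouts against Ctrl stayed at 0 called genes under every alternative run. With depth class as a term, 1 gene was lower in β-Mfn1/2DKO than in Ctrl, 10 changed against β-Mfn1KO and 5 against β-Mfn2KO. Against β-Mfn2KO the count was 17 with total-count scaling, 11 without β-Mfn1/2DKO replicates 4 and 5 and 6 among libraries above 40000000 counts. The last 2 use fewer samples, and for the others the cause was not tested. The other alternatives gave 22 to 29 genes lower in β-Mfn1/2DKO than in Ctrl, and no gene reversed a called direction. These counts are given here without shares over all genes. Calls over all genes also moved with the setting, as given above for depth class and total-count scaling in β-Mfn1/2DKO against Ctrl. A count that moves with the setting is therefore no result particular to the genes described here.

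With the replicate number as a block, 4 genes were higher and 29 lower in β-Mfn1/2DKO than in Ctrl, 31 changed against β-Mfn2KO, 31 against β-Mfn1KO and 0 in each single knockout, where β-Mfn2KO then had 22 genes at an unadjusted p under 0.05 in place of 1. Shares over all genes were not set beside these counts. Libraries of the same number in different groups had a mean correlation of 0.25 of their deviations (lowest -0.10, over 0.1 in 21 of 27 pairs). Between libraries of different numbers the mean was -0.05, and 10 of 20 libraries correlated best with their own number. Libraries of the same number thus share some of their deviation. The labels do not say what the numbers mean, and the main fit does not pair the samples by them.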

Other observations

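β-Mfn2KO replicate 3, the library in which Ern1 and Sel1l stood out, also held Ddit3 at 196 CPM against 51.6 to 84.6 CPM in the other 4 β-Mfn2KO libraries. The β-Mfn1/2DKO libraries spanned 151 to 315 CPM. Trib3 was at 99.5 CPM in that library and at 46.9 to 83.3 CPM in the other 4. The list of Perk output did not move as one there. Sesn2 (205 CPM) and Cebpb (99.2 CPM) were also the highest of the group. Chac1 was the lowest, at 34.7 CPM against 59.3 to 85.6 CPM, as were Asns, at 134 CPM against 175 to 218 CPM, and Atf4, at 344 CPM against 363 to 411 CPM. The rest of the list lay between the other libraries. These genes were picked after their values were seen. The total of that library was 15110046 counts and its summed acinar markers 480.5 CPM.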
